A study of Mus musculus with 16 samples.

Results

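The Dlk1-Dio3 genes examined here were the 7 rows named Dlk1, Meg3, Rtl1, Rian, Mirg, Dio3 and Begain, of 22552 genes in the deposited expression table. They were chosen by name, with earlier results of these data known. The table held 1 RNA-seq library for each of 16 mouse cell lines of the 129-M2rtTA background, all reprogrammed from adipocyte progenitor cells (APCs) of mice that had been made wholly from iPSCs. The 9 AN lines were nuclear transfer embryonic stem cells (ntESCs), made by moving an APC nucleus into an oocyte. The 7 AI lines were iPSCs made from the same kind of APC with doxycycline, which switches on reprogramming factor transgenes already in these cells. F marked lines that were fully reprogrammed and P lines that were partially reprogrammed in tetraploid complementation, a test in which injected cells must form the whole pup. This state came from the study's text and not from the sample labels.

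There were 4 AN F lines (AN1, AN9, AN15, AN20) and 5 AN P lines (AN2, AN3, AN5, AN6, AN7). There were 4 AI F lines (GS32, AI10, AI7, AI3) and 3 AI P lines (GS4, GS9, AI9). The 3 GS lines had been established earlier, and were at passage 17 (GS4), 13 (GS32) and 6 (GS9). The other 13 lines were at passages 5 to 7. The source entry of GS9 and of GS32 named GS4, so results were also computed without them. Each line was 1 clone and 1 library, so that p-values measure the spread between lines. Of 16 pluripotency markers, 15 were in the table and all 15 were above 0 in each line, with a summed level of 2788 to 4997 FPKM, a read level scaled to transcript length and library size. The read depth was not known.

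The Dlk1-Dio3 domain is an imprinted cluster, in which a gene is read from only the copy inherited from the mother or only that from the father. The maternal copy makes the long noncoding RNAs Meg3 (also called Gtl2), Rian and Mirg, which carry many small RNAs. The paternal copy makes the proteins of Dlk1, Rtl1 and Dio3. A methylated control region between Dlk1 and Meg3 sets which copy makes which RNA, and silencing of the maternal RNAs is well known in mouse iPSC lines. Begain lies beside the domain and its imprinting depends on isoform and tissue, so it was placed in neither class.

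In the mm9 annotation, the domain lay on chromosome 12 and ran over 828275 bases from the start of Dlk1 to the end of Dio3. Dlk1 was at chr12:110691033-110701546, Meg3 at chr12:110779211-110809936, Rian at chr12:110842155-110899919, Mirg at chr12:110973191-110987665 and Dio3 at chr12:111517278-111519307, all on the forward strand. Rtl1 at chr12:110827404-110838540 and Begain at chr12:110270397-110291589 were on the reverse strand. Between Mirg and Dio3 were 529613 bases with no other member.

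**Figure D1:**
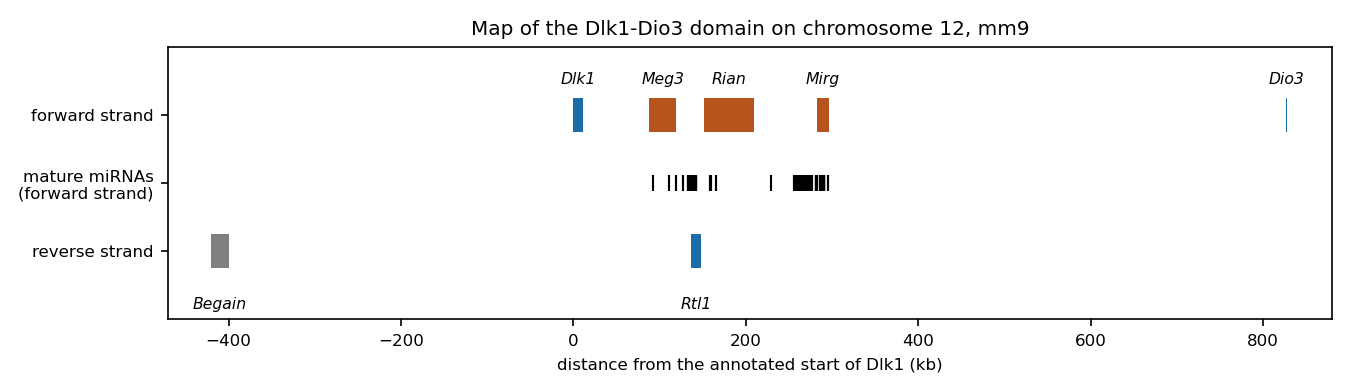
Map of the 7 genes and of the mature miRNAs, with the distance from the start of Dlk1 in kb on the x axis and the strand on the y axis. Orange boxes are noncoding members, blue boxes are coding members, the grey box is Begain and the ticks are miRNAs on the forward strand. Rtl1 lies on the strand opposite to the miRNAs above it.

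The promoters of Meg3 and Dlk1 are shown because these genes, maternally and paternally expressed in that order, lie on either side of the control region. The sequences were taken from RefSeq (GRCm38.p6) and each was found once in the same region of mm9. The Meg3 window is chr12:110778956-110779255 and the Dlk1 window, which ends before the transcript, is chr12:110690783-110691032, both on the forward strand. Capitals mark TGACGTCA, the cAMP response element, and TATAAA, the TATA box core, on either strand.
Meg3 promoter: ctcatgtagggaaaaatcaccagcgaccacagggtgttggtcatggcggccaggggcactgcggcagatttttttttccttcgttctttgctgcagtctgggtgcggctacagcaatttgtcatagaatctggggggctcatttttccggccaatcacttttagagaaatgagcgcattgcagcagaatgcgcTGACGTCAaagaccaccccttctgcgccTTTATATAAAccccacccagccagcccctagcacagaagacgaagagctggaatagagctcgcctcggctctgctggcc
Dlk1 promoter: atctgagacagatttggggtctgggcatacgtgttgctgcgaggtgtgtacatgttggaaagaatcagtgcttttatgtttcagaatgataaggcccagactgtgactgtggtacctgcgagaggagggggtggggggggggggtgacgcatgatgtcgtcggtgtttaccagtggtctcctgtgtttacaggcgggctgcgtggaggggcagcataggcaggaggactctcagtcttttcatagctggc
The Meg3 window held 1 TGACGTCA and 2 overlapping TATAAA matches, 1 on each strand. TGACGTCA was in 1.79% of 32817 promoter windows of the same length in the mouse table, and TATAAA in 13.6%. The Meg3 window also held 1 CCAAT, which was in 37.4% of windows, and 1 TGCCGC, the core read by the imprint factor Zfp57, which was in 11.6%. The Meg3 window had 13 CG dinucleotides, beside a median of 7 over all windows. RefSeq also gave a window for a later Meg3 start, at chr12:110783358-110783657, with 1 CG and none of the 4 motifs. The full Dlk1 window, whose transcribed end is not printed, held none of the 4 motifs and had 9 CG dinucleotides.

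The miRNAs opposite to Rtl1 are shown because they decide how the Rtl1 value can be read. Of 110 mature miRNAs placed once in the domain, 11 from 6 miRNA genes lay inside an Rtl1 exon on the opposite strand. 5 of these follow, 1 for each of 5 genes, with the seed (bases 2 to 8) in capitals.
mmu-miR-431-5p: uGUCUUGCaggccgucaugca
mmu-miR-433-3p: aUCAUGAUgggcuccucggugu
mmu-miR-127-3p: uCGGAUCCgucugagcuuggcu
mmu-miR-434-3p: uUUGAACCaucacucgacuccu
mmu-miR-136-5p: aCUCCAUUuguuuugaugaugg
These seeds all differed from each other. The library kit did not mark the strand, so reads of the Rtl1 protein-coding RNA and of the maternal antisense RNA that carries these miRNAs cannot be told apart, and the Rtl1 level below is a level of both.

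Each noncoding member was above each coding member in all 16 lines, by a wide margin for Meg3 and Rian and by less for Mirg. Mirg was nearest to Dlk1 in AI9, at 2.38 against 1.60 FPKM. Over all lines, mean FPKM was 113.8 ± 39.2 for Rian and 91.1 ± 33.3 for Meg3 (SD, n = 16), above 92.9% and 91.4% of 13185 genes with a mean of at least 0.5. Mirg was at 8.73 ± 3.62, near the middle of those genes. Dlk1, a Notch family protein of progenitor cells, was at 2.18 ± 0.741. Begain, a protein of the postsynaptic density, was at 0.920 ± 0.284 and Rtl1, a retrotransposon-derived protein of the placenta, was at 0.782 ± 0.351. Dio3, the enzyme that inactivates thyroid hormone, was at 0.466 ± 0.110 and was the only member under the level of 0.5 needed for the limma fit.

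**Figure D2:**
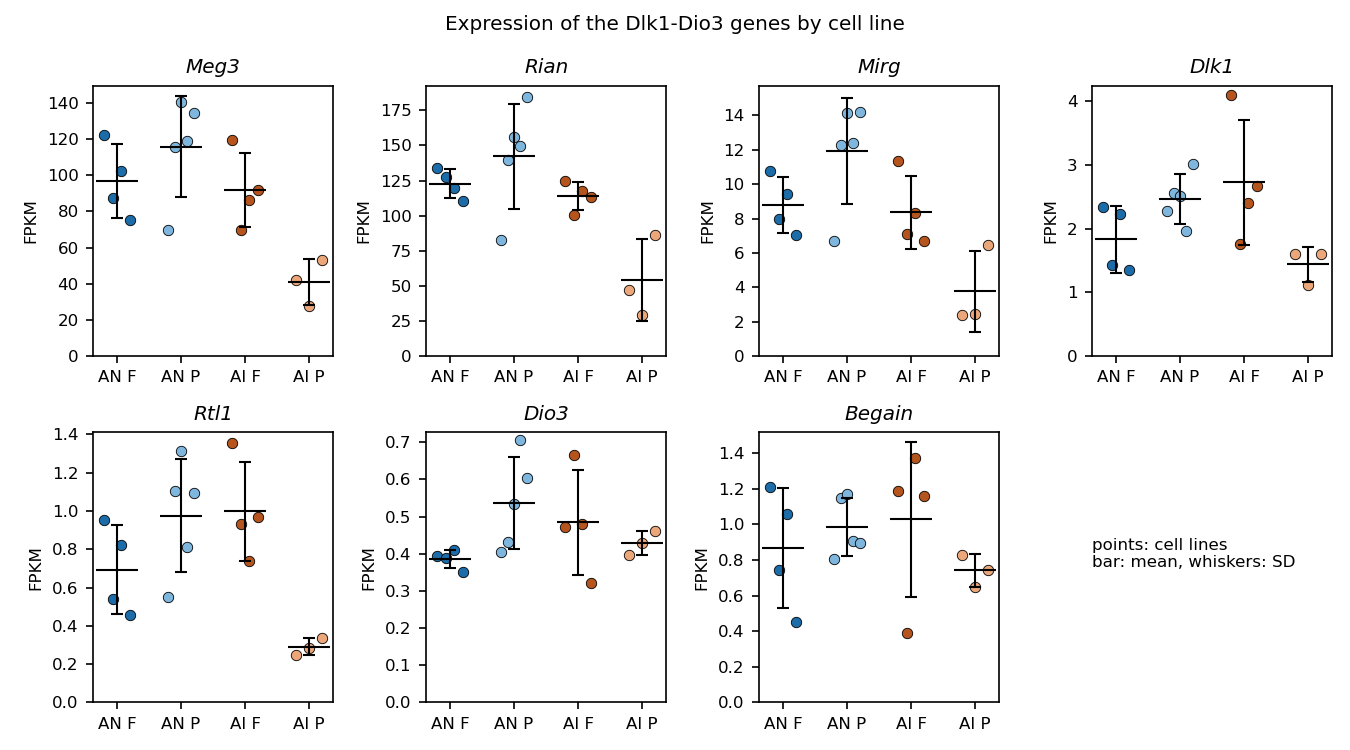
FPKM on the y axis for each member in the 4 groups on the x axis. Points are lines, long bars are group means and whiskers are SDs. AI P is the lowest group for Meg3, Rian, Mirg, Dlk1 and Rtl1, and Dio3 and Begain overlap between all groups.

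AI F was set against AI P to ask whether iPSCs of unlike pluripotency differed in expression. Meg3, Rian, Mirg, Dlk1 and Rtl1 were each higher in all 4 AI F lines than in all 3 AI P lines, while Dio3 and Begain overlapped. Meg3, the RNA whose promoter is shown above, was at 119.4 in AI3, 69.8 in AI7, 86.5 in AI10 and 92.1 FPKM in GS32. Among AI P lines, GS4 was at 27.7, AI9 at 42.0 and GS9 at 53.3. The lowest AI F line thus stood above the highest AI P line.

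Rian, which hosts C/D box small nucleolar RNAs, was at 124.4 in AI3, 100.5 in AI7, 117.2 in AI10 and 113.3 FPKM in GS32. Among AI P lines, GS4 was at 29.4, AI9 at 46.7 and GS9 at 86.2. GS9 kept 75.7% of the AI F mean of Rian, against 41.0% in AI9 and 25.8% in GS4. Mirg, the host of a large miRNA cluster, was at 11.4 in AI3, 7.08 in AI7, 8.35 in AI10 and 6.68 FPKM in GS32. AI9 was at 2.38, GS4 at 2.43 and GS9 at 6.45. GS9 was therefore close under the lowest AI F line for Mirg, and the other AI P lines were well below it.

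Dlk1 was at 4.09 in AI3, 1.76 in AI7, 2.40 in AI10 and 2.67 FPKM in GS32. GS4 was at 1.12, and AI9 and GS9 were at 1.60 each. The gap between AI7 and the highest AI P lines was small beside the spread within AI F. Rtl1 was at 1.35 in AI3, 0.931 in AI7, 0.739 in AI10 and 0.967 FPKM in GS32. AI9 was at 0.249, GS4 at 0.284 and GS9 at 0.338. Rtl1 had the widest separation, and its AI P lines were at 25.0% to 33.9% of the AI F mean.

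Dio3 was at 0.320 to 0.665 FPKM in AI F and at 0.397 to 0.460 in AI P. The AI P values lay inside the AI F range. Begain was at 1.19 in AI3, 0.390 in AI7, 1.37 in AI10 and 1.16 FPKM in GS32. GS4 was at 0.647, GS9 at 0.746 and AI9 at 0.829, so that AI7 was below all AI P lines.

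As ratios of group means, AI F was 2.24-fold higher for Meg3, 2.23-fold for Mirg, 1.90-fold for Dlk1 and 3.44-fold for Rtl1, and Rian had means of 113.9 ± 9.99 and 54.1 ± 29.1 FPKM (SD, n = 4 and 3). On the log2(FPKM + 1) scale, which understates changes of low genes, the limma difference was 1.17 ± 0.253 for Meg3, 1.19 ± 0.320 for Rian, 1.06 ± 0.315 for Mirg, 0.58 ± 0.209 for Dlk1 and 0.62 ± 0.112 for Rtl1 (± SE). The unadjusted limma p was 0.00216 for Meg3, 0.00689 for Rian, 0.0113 for Mirg, 0.0255 for Dlk1 and 0.000708 for Rtl1. After Benjamini-Hochberg adjustment over all 13185 genes, it was 0.521 for each, and 0.627 for Begain (difference 0.19 ± 0.186). No gene was called over the table (0.0%), 458 were higher in AI F at an unadjusted p under 0.05 (3.47%) and 567 were lower. Of the 6 members tested, 5 were among the 458. An order with all AI F lines over all AI P lines was found for 224 genes (1.7%), and for 5 of the 7 members. In the exact two-sided permutation test these 5 had p = 0.0571, the smallest that 4 against 3 lines allow, and Dio3 and Begain had exact p = 0.629 and 0.4. With quantile normalization, the Mirg groups overlapped, with an exact permutation p of 0.114, and the order of the other 4 held.

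**Figure D3:**
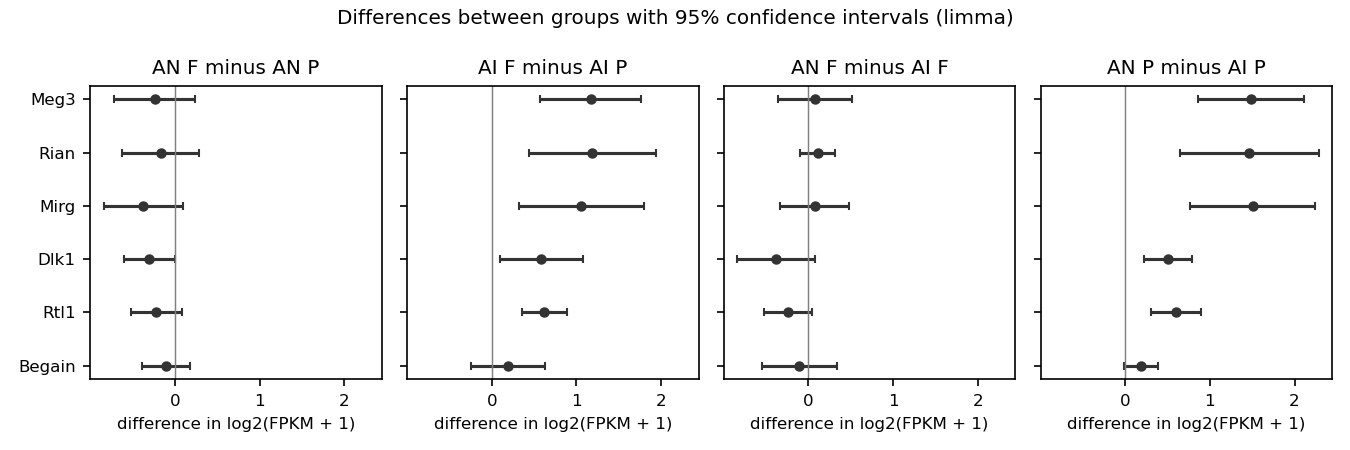
Differences in log2(FPKM + 1) on the x axis for the 6 members in the limma fit, in 4 comparisons of groups. Points are estimates and bars are 95% confidence intervals. The intervals of Meg3, Rian, Mirg, Dlk1 and Rtl1 lie above 0 in AI F minus AI P and in AN P minus AI P, and the intervals in the other comparisons all reach 0.

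The AI difference kept its sign in the following fits, which left out lines, and its size varied between them. With AI9 as the only AI P line, it was 1.09 for Meg3, 1.26 for Rian, 1.44 for Mirg, 0.49 for Dlk1 and 0.67 for Rtl1, where the lone line is assumed to vary like the others. Without AI9 it was 1.21, 1.15, 0.86, 0.63 and 0.60 in the same order. Without GS9 and GS32, it was 1.37 for Meg3, 1.59 for Rian, 1.52 for Mirg, 0.63 for Dlk1 and 0.65 for Rtl1. The number of genes called over the table moved to 20 with AI9 alone, to 6 without GS9 and GS32 and to 5 without GS9, and no member was among them, with an adjusted limma p of 0.126 to 1 for Meg3 over all alternatives.

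Fibroblast marker genes moved with this comparison. The ntESC lines had been derived on a layer of mouse embryonic fibroblasts. In bulk RNA, fewer cells of a type and less RNA per cell cannot be told apart. All 30 fibroblast markers were higher on average in AI F than in AI P, 6 of them at an unadjusted p under 0.05, with a median difference of 0.97 on the log2(FPKM + 1) scale beside -0.04 over all genes. No marker of the 30 was at 0 in any line. Their summed level was 1501 to 3001 FPKM in AI F and 749 to 2527 in AI P, 1224 to 2212 in AN F and 1501 to 2894 in AN P. In AI P, the sum was 749 in GS4 and 797 in GS9, below all other lines, and 2527 in AI9. AI9 thus lay inside the AI F range of the markers, and its Meg3, Rian, Mirg, Dlk1 and Rtl1 lay below the AI F range.

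**Figure D4:**
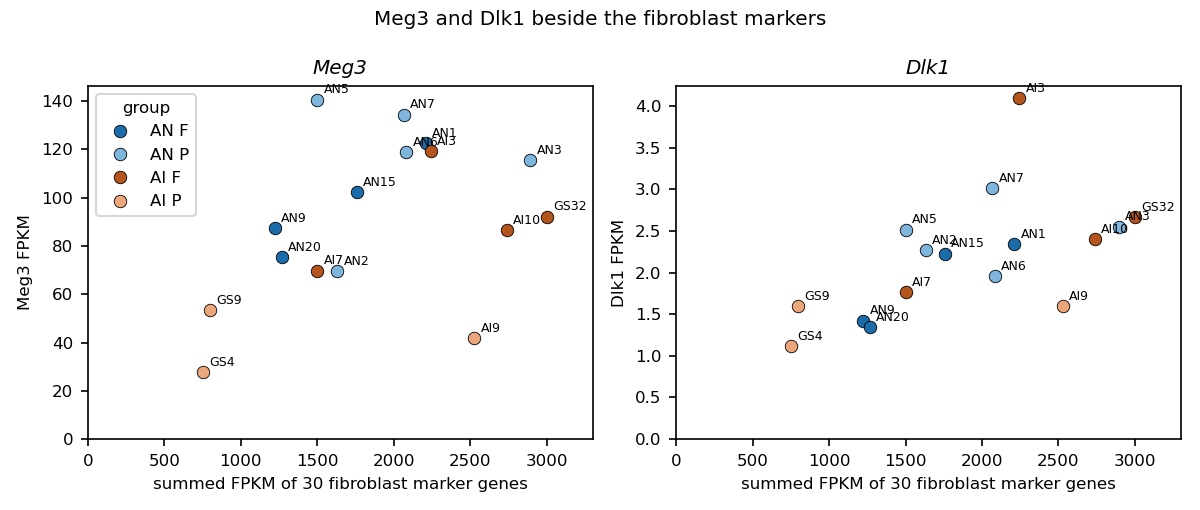
FPKM of Meg3 and of Dlk1 on the y axes against the summed FPKM of 30 fibroblast markers on the x axis, 1 point for each line, coloured by group. AI9 has a marker sum of 2527 and a Meg3 level of 42.0, while GS4 and GS9 have the lowest marker sums.

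When the fibroblast level of each line entered the fit, the AI difference was 1.08 ± 0.342 for Meg3, 1.30 ± 0.436 for Rian, 1.36 ± 0.387 for Mirg and 0.65 ± 0.148 for Rtl1 (limma, ± SE). It was 0.42 ± 0.266 for Dlk1, whose 95% interval then reached 0, and -0.038 ± 0.208 for Begain. The adjusted p of each member was 1 in this fit. Over 19 alternatives, the unadjusted p of Dlk1 was under 0.05 in 13, and that of Rtl1 in all 19. The 9 tested of 17 extraembryonic endoderm markers also leaned to AI F, with 8 of 9 higher, 1 of them at an unadjusted p under 0.05. Of the 4 tested of 8 neural markers, 3 were higher and none at that p. Of 15 pluripotency markers, 11 were lower in AI F, 2 of them at that p. The part of these other genes in the result was not tested.

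The same question was put to the ntESCs. Here the mean was lower in AN F than in AN P for all 7 members, and the lines overlapped for each of them. Meg3 was at 122.5 in AN1, 87.4 in AN9, 102.5 in AN15 and 75.3 FPKM in AN20. In AN P it was at 69.6 in AN2, 115.5 in AN3, 140.6 in AN5, 119.0 in AN6 and 134.4 in AN7. The lowest of the 9 values was thus in an AN P line, and so were the 2 highest.

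Rian was at 110.1 to 134.2 FPKM in AN F and at 82.3 in AN2, 139.9 in AN3, 155.8 in AN5, 149.5 in AN6 and 184.4 in AN7. Mirg was at 7.03 to 10.8 in AN F and at 6.66 in AN2, 12.3 in AN3, 14.2 in AN5, 12.4 in AN6 and 14.2 in AN7. For both RNAs, AN2 lay below all AN F lines and the other 4 AN P lines lay above them. Dlk1 was at 2.34 in AN1, 1.42 in AN9, 2.23 in AN15 and 1.34 FPKM in AN20, and at 1.96 to 3.02 in AN P. Rtl1 was at 0.458 to 0.951 FPKM in AN F and at 0.553 to 1.31 in AN P. AN9 and AN20 were the lower AN F lines for both genes.

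The limma difference of AN F minus AN P was -0.24 ± 0.213 for Meg3, -0.17 ± 0.201 for Rian, -0.37 ± 0.209 for Mirg, -0.30 ± 0.137 for Dlk1, -0.22 ± 0.134 for Rtl1 and -0.10 ± 0.125 for Begain (± SE). No member passed an unadjusted p of 0.05, at which 792 genes passed in either direction (6.01%), and adjusted limma p-values were 0.636 to 0.755. No gene was called (0.0%). The groups did not overlap for 171 genes (1.3%), and for no member. Of the 30 fibroblast markers, 3 were higher in AN F, and none passed the unadjusted threshold. Without AN2, the difference was -0.41 for Meg3, -0.35 for Rian, -0.55 for Mirg and -0.30 for Rtl1. The unadjusted limma p was 0.0235, 0.00856, 0.00246 and 0.0328 in that order, with adjusted p = 0.632 each. In that fit, 327 genes were higher and 314 lower in AN F at an unadjusted p under 0.05, of 13185.

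Dio3 was at 0.393 in AN1, 0.390 in AN9, 0.411 in AN15 and 0.351 FPKM in AN20. In AN P it was at 0.405 in AN2, 0.432 in AN3, 0.533 in AN5, 0.707 in AN6 and 0.604 in AN7. The groups overlapped only by AN15 and AN2. The exact two-sided permutation p was 0.0317, not adjusted, among 28 such tests of the members, and in the limma fit without a filter the adjusted p was 0.744. With quantile normalization the exact p was 0.190.

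The effect of the state was then compared between AI and AN. The AI difference exceeded the AN difference by 1.41 ± 0.345 for Meg3, 1.36 ± 0.381 for Rian, 1.43 ± 0.378 for Mirg, 0.89 ± 0.249 for Dlk1 and 0.84 ± 0.195 for Rtl1 (limma's interaction, ± SE). The exact two-sided permutation p, exchanging labels within AN and within AI, was 0.0113 for Meg3, 0.0236 for Rian, 0.0118 for Mirg, 0.0059 for Dlk1 and 0.00454 for Rtl1, not adjusted. The null of this permutation was no effect of the state in AN and none in AI. A small p can therefore come from the AI difference alone, and does not by itself show that the effects differ. Over all genes, the adjusted limma p was 0.290 for these 5. No gene was called (0.0%), and at an unadjusted p under 0.05 the effect was higher in AI for 1095 genes (8.3%) and lower for 1099. Of the 6 members tested, 5 were among the 1095. For Begain the difference was 0.30 ± 0.231 with an unadjusted limma p of 0.218, and for Dio3 the exact two-sided p was 0.0658. Without AI9, 651 of 13185 genes were called, Meg3 with 1.45 and Rtl1 with 0.82 among them (limma, adjusted p = 0.0468 and adjusted p = 0.0447). The AI P lines left were GS4 and GS9, both established earlier and with the lowest fibroblast marker sums, 749 and 797 FPKM. Within AI, state and marker level cannot be told apart in that fit. Over all alternatives, the highest adjusted limma p was 0.999 for Meg3 and for Rtl1. For the fibroblast markers, 29 of 30 had a higher effect in AI as well, 18 at an unadjusted p under 0.05, with a median of 1.26.

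Lines of the same state were then compared between both methods. Among F lines, the members did not separate. AN F minus AI F was 0.08 ± 0.190 for Meg3, 0.11 ± 0.0925 for Rian and 0.08 ± 0.179 for Mirg, and -0.38 ± 0.202 for Dlk1, -0.24 ± 0.126 for Rtl1 and -0.11 ± 0.193 for Begain (limma, ± SE). The 95% interval was -0.36 to 0.51 for Meg3 and -0.84 to 0.08 for Dlk1. None of the 6 passed an unadjusted p of 0.05, as 1245 genes did (9.44%), and adjusted limma p-values were 0.496 to 0.866. A single gene was called (0.00758%), Mir302b, a miRNA gene outside the domain, named here after its value was seen. The F groups did not overlap for 416 genes (3.16%), and for no member. Of the fibroblast markers, 4 of 30 were higher in AN F than in AI F and 5 were lower at an unadjusted p under 0.05, with a median of -0.48. Entering the fibroblast level gave -0.17 ± 0.188 for Dlk1 and -0.16 ± 0.140 for Rtl1 (limma, ± SE).

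Among P lines, the same 5 members were higher in AN P than in AI P. The AI P lines are those compared with AI F above, so this is not separate evidence. AN P minus AI P was 1.48 ± 0.271 for Meg3, 1.47 ± 0.358 for Rian, 1.51 ± 0.322 for Mirg, 0.51 ± 0.124 for Dlk1 and 0.60 ± 0.130 for Rtl1 (limma, ± SE), and 0.19 ± 0.0901 for Begain. As ratios of means these were 2.83-fold, 2.63-fold, 3.18-fold, 1.71-fold and 3.36-fold for Meg3, Rian, Mirg, Dlk1 and Rtl1. These 5 passed an unadjusted p of 0.05, as did 423 genes in this direction (3.21%), and adjusted limma p was 0.719 for each. Meg3, Mirg, Dlk1 and Rtl1 did not overlap, an order that 221 genes had (1.68%), with an exact two-sided permutation p of 0.0357, the smallest that 5 against 3 lines allow. Rian overlapped, since AN2 at 82.3 was below GS9 at 86.2 FPKM. With quantile normalization Mirg overlapped (exact permutation p = 0.0714) and Rian did not (exact permutation p = 0.0357). All 30 fibroblast markers were higher in AN P as well, 5 of them at an unadjusted p under 0.05, with a median of 0.74. Called over all genes were 2 (0.0152%), Mir27a, a miRNA gene outside the domain named after its value was seen, and Mir3072, a small RNA gene of the domain described below.

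The maternal and the paternal class were set side by side in each line. The noncoding level was the mean of log2(FPKM + 1) over Meg3, Rian and Mirg, and the coding level that over Dlk1, Rtl1 and Dio3. The noncoding level averaged 5.61 ± 0.214 over AN F, 5.87 ± 0.413 over AN P, 5.52 ± 0.235 over AI F and 4.38 ± 0.604 over AI P (SD, n = 4, 5, 4 and 3). The coding level was 0.90 ± 0.162, 1.12 ± 0.122, 1.14 ± 0.162 and 0.72 ± 0.0643 in the same groups. Both levels were lowest on average in AI P. The coding level includes Rtl1, whose reads cannot be told apart from those of the maternal antisense RNA. Of the coding members, Dlk1 and Rtl1 were lowest on average in AI P, and Dio3 was not. The lines with the lowest coding level, GS4 at 0.65 and AI9 at 0.73, also had the lowest noncoding levels, 3.85 and 4.25. AN20 broke this order, with a coding level of 0.74 and a noncoding level of 5.35.

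**Figure D5:**
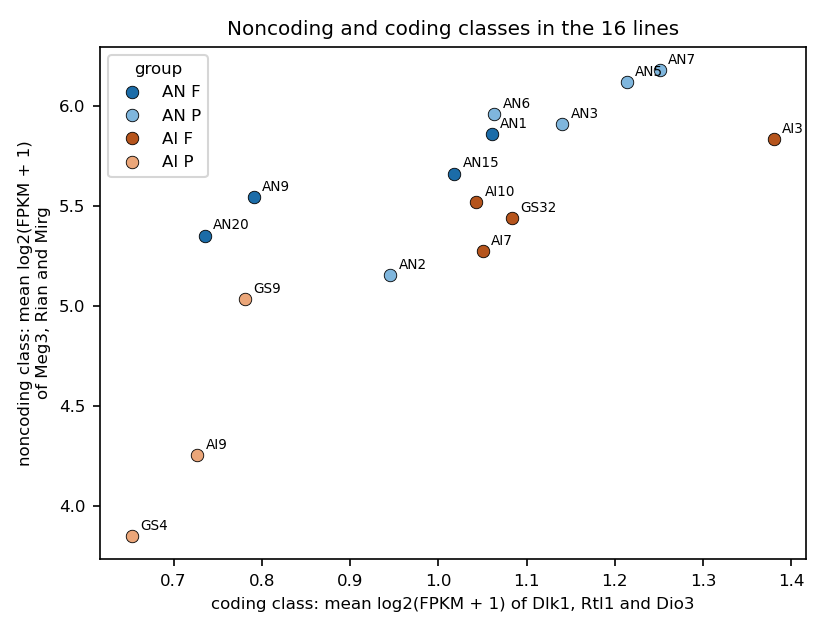
Noncoding level on the y axis against coding level on the x axis, both as mean log2(FPKM + 1), 1 point for each line, coloured by group. GS4 and AI9 lie lowest on both axes, GS9 lies nearer to the AN F lines AN9 and AN20, and AI3 has the highest coding level, 1.38.

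The noncoding minus coding difference was 4.80, 4.75, 4.65 and 4.62 in AN1, AN9, AN15 and AN20. In AN P it was 4.21 in AN2, 4.77 in AN3, 4.91 in AN5, 4.90 in AN6 and 4.93 in AN7. AN2 thus stood apart from the other 8 AN lines. The AI F lines had 4.46 (AI3), 4.23 (AI7), 4.48 (AI10) and 4.36 (GS32). The AI P lines had 3.20 (GS4), 3.53 (AI9) and 4.25 (GS9). AI9 and GS4 were thus below all other lines, and GS9 lay inside the AI F range. All 4 AN F lines were above all 4 AI F lines. In AN F and AI F, the mean coding level was 0.90 and 1.14, and the mean noncoding level 5.61 and 5.52. Of 13185 single genes, 416 (3.16%) did not overlap between these groups, and the noncoding minus coding difference was not tested. Since log2(FPKM + 1) compresses low genes, the AI F minus AI P difference in this measure fell from 0.72 to 0.41 with a pseudocount of 0.1.

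Within the maternal class, the ratio of Rian to Meg3 in FPKM was 1.26 ± 0.171 (SD, n = 16), from 1.04 in AI3 to 1.62 in GS9. The ratio of Mirg to Meg3 was 0.0879 to 0.0933 in AN F and 0.0957 to 0.106 in AN P. It ranged from 0.0568 in AI9 to 0.121 in GS9 within AI P, wider than in any other group. Across the classes, Meg3 to Dlk1 was 54.0 ± 6.49 over AN F, 47.4 ± 11.7 over AN P, 34.8 ± 4.34 over AI F and 28.1 ± 4.62 over AI P (SD, n = 4, 5, 4 and 3). Within the paternal class, Dlk1 to Rtl1 was 2.69 ± 0.196, 2.70 ± 0.844, 2.73 ± 0.592 and 5.02 ± 1.26 in the same groups. The 3 AI P lines were at 6.40, 3.94 and 4.73, and of the other 13 only AN2, at 4.11, reached this range.

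Likeness across lines was computed for the 6 members that averaged 0.5 FPKM or more, which leaves out Dio3. Over the 16 lines, Pearson's r of log2(FPKM + 1) with Meg3 was 0.958 for Rian, 0.956 for Mirg, 0.866 for Rtl1, 0.727 for Dlk1 and 0.545 for Begain, and that of Rian with Begain was 0.39, as a description, since the AI P lines pull all of these down at once. Within the 9 AN lines it was 0.899 for Rian, 0.98 for Mirg, 0.923 for Rtl1 and 0.657 for Dlk1. Within the 7 AI lines it was 0.953 for Rian, 0.920 for Mirg, 0.907 for Rtl1 and 0.928 for Dlk1. Rtl1, a paternally expressed gene by its protein, had an r of 0.923 with the maternal Meg3 and of 0.818 with the paternal Dlk1 in AN (n = 9). By rank the order was the other way round, with a Spearman rho of 0.817 with Meg3 and 0.883 with Dlk1.

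Of all tested genes, the 3 most like Meg3 over the 16 lines were members of the domain, Rian, Mirg and Rtl1. The next was 6430411K18Rik (r = 0.841), a noncoding RNA that the RefSeq names table also lists as PEG11as, the antisense of Rtl1, and that lies within Rtl1 in GRCm38.p6. It was at 3.04 in AN1, 1.17 in AN9, 2.31 in AN15 and 1.20 FPKM in AN20, and at 0.568 to 2.62 in AN P with AN2 lowest. AI3 was at 2.52, AI7 at 1.84, AI10 at 1.41 and GS32 at 2.23, while AI9 was at 0.897, GS4 at 0.554 and GS9 at 1.22. The AI P lines were low, as its choice by likeness to Meg3 over these same lines favours. Its r with Rtl1 was 0.871, and without strand their reads cannot be told apart. Other genes high in this order were Fam89b (0.799), Scand1 (0.793) and Kcnj4 (0.787). The genes most like Dlk1 were Tspan4 (0.883), Hoxa11as (0.872), Nptx1 (0.872), Fam89b (0.863) and Gsto1 (0.858), and Rtl1 came at rank 11 and Meg3 at rank 238.

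The small RNAs of the domain were mostly not recorded. Of 69 names, 59 were in the table, 39 of them listed at 0 in all lines and 8 above 0 in a single line. A 0 in a table of FPKM can be a failed estimate for so short a gene, and these libraries did not measure mature miRNAs. The highest mean FPKM was that of AF357355, a small nucleolar RNA, listed at 4096 in AN9, 4155 in AN7, 3731 in AI10 and 3815 FPKM in GS32 and at 0 in the other 12 lines. This pattern followed no group. For so short a gene, values of this size can come from very few reads, so they do not show that the RNA was abundant.

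Mir3072, inside Mirg, was listed at 187.5 in AN1 and 245.7 in AN15, and at 64.4, 54.9, 431.0, 59.9 and 118.2 FPKM in AN2, AN3, AN5, AN6 and AN7. It was at 189.3 in AI3, 130.1 in AI7 and 54.3 in GS32, and at 0 in AN9, AN20, AI10 and all 3 AI P lines. All 5 AN P lines were above 0 and no AI P line was, and this is the gene called between AN P and AI P (limma, adjusted p = 0.0273). In 1 fit of all 16 lines no gene was called there, so that this call was lost. The lowest Mir3072 values above 0 lay close together, at 54.3 in GS32, 54.9 in AN3, 59.9 in AN6 and 64.4 in AN2. No line was between these and 0. Read counts were not known, so these values, and the call that rests on them, may stand for very few reads. Mir493 was listed at 64.4 in AN2 and 59.9 in AN6, the same values as Mir3072 in those lines, and at 0 elsewhere. Mir453 was above 0 in 7 lines, at 53.1 to 69.6, Mir1188 in 9 lines, at 8.51 to 40.5, and Mir412 in 2 lines, at 77.2 in AN1 and 62.3 in AI9. Mature sequences of Mir453 and Mir3072, which both lie inside Mirg, follow with miR-496a-5p, which shares its seed with miR-453. Seeds are in capitals.
mmu-miR-453: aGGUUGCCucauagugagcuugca
mmu-miR-496a-5p: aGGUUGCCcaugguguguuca
mmu-miR-3072-3p: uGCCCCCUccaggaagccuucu
Of the 110 mature miRNAs of the domain, 16 shared a seed with another, in 8 seeds. The seed of miR-3072-3p was not among these.

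Genes that flank the domain were also examined. Of 22 named, 21 were in the table and 20 were tested. The mean of log2(FPKM + 1) over the 21 was 3.59 to 3.69 in the 16 lines, and their summed level was 1737 to 3764 FPKM. Between AI F and AI P, 10 of 20 were higher, and only Zfp839 passed an unadjusted p of 0.05, lower by a difference of -0.34 ± 0.114 (limma, ± SE, adjusted p = 0.521). The median difference was 0.00 beside -0.04 over all genes. Wdr25, the nearest named flanking gene on the Begain side, was at -0.14 ± 0.105 and Ppp2r5c, the next gene after Dio3, at -0.16 ± 0.148 (limma, ± SE). In other comparisons, Yy1 was 0.25 ± 0.0830 higher in AN F than in AN P, Ppp2r5c 0.30 ± 0.117 higher in AN F than in AI F and Eml1 at -0.45 ± 0.141 there, and Zfp839 was at -0.26 ± 0.101 in AN P minus AI P (limma, ± SE, unadjusted p under 0.05, adjusted p of 0.496 to 0.719). In the interaction, Eml1 (0.67), Yy1 (-0.34), Hsp90aa1 (-0.76) and Tecpr2 (-0.29) passed the unadjusted threshold, 4 of 20 beside 1095 higher and 1099 lower of 13185 genes.

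A chosen list of 22 possible regulators of the control region was examined, and all 22 were tested. These libraries did not measure methylation. Zfp57 and Trim28 hold methylation at imprinted regions, Dnmt1 copies it, Dnmt3a, Dnmt3b and Dnmt3l set it, Dppa3 protects it and the Tet enzymes oxidise it. Between AI F and AI P, 6 of 22 were higher, with a median difference of -0.15, and 2 passed an unadjusted p of 0.05, Tet3 (0.58 ± 0.226) and Aff3 (0.48 ± 0.176), with adjusted p = 0.521 each (limma, ± SE). Zfp57 was at 62.0 ± 15.7 FPKM in AI F (SD, n = 4) and 104.1 ± 50.3 in AI P (n = 3), a limma difference of -0.66 ± 0.339 (SE), with a 95% interval of -1.46 to 0.13. Dppa3 was at -0.70 ± 0.441 and Dnmt3l at -0.63 ± 0.467, with 95% intervals of -1.74 to 0.33 and -1.73 to 0.46. Trim28 was at -0.19, Dnmt1 at -0.07, Dnmt3a at 0.05, Dnmt3b at 0.06 and Tet1 at -0.03, with SEs of 0.130 to 0.385. Between AN F and AN P, 20 of 22 factors were higher in AN F, none at an unadjusted p under 0.05, with a median of 0.17 beside -0.01 over all genes. In the interaction, Tet3 (0.63) and Zfp57 (-0.81) were among the 5 factors past the unadjusted threshold, 1 of them with a higher effect in AI and 4 with a lower one, of 22, beside the same 1095 and 1099 of 13185 genes.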

How the data were processed

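RNA was sequenced from 16 lines, as single-end reads from a kit that does not mark strand. The authors mapped reads to mm9 with TopHat 2.1.0 and computed the deposited FPKM values with Cufflinks 2.2.1 (HTSeq is also named in the submitters' processing notes, without a role). FPKM divides by transcript length and library size, and counts were not recoverable, so depth and counting error are unknown.

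Lines were grouped by method from the labels and by state from the study's text, matched by line name. The study's own test, Cuffdiff on reads, could not be run on FPKM. Of 22552 genes, the 13185 that averaged 0.5 FPKM or more were tested as log2(FPKM + 1) with limma 3.58.1 (R 4.3.3, trend), separately for each comparison, with Benjamini-Hochberg adjustment over all genes and a threshold of 0.05. Limma was tested on simulated data. Single members were tested with the exact two-sided permutation test of scipy, in which p is 2 times the smaller tail. Alternatives were the pseudocount, filters, scalings, covariates (fibroblast markers, passage, derivation) and leaving out lines. Linear FPKM in the exact tests and leaving out GS9 and GS32 were added after seeing the data.

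All 7 members were named in every comparison. Named besides were the 6 small RNAs with the highest mean, flanking genes with an unadjusted p under 0.05 in any comparison plus Wdr25 and Ppp2r5c, 8 fixed imprint factors plus those with an unadjusted p under 0.05 between AI F and AI P, and the 5 genes most correlated with Meg3 and with Dlk1, of which 1 is not reported here. The members and lists were chosen with earlier results of these data known. Annotation was GENCODE M1 (mm9). Sequences were from RefSeq and were placed in mm9 by exact match.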

Additional observations from a re-analysis of the deposited data

Results flagged for a closer look

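In AN P, the line AN2 was far below the other 4 lines for Mirg (6.66 FPKM), for the noncoding level (5.15) and for the noncoding minus coding difference (4.21). In AI F, the line AI3 was far above the others in the coding level (1.38). Of 30 groups examined in this way, 4 had such a line. The measures overlap, since Mirg is part of the noncoding level and that level is part of the difference. AN2 was therefore counted more than once, and the 1.5 expected by chance for separate groups cannot be set beside the 4. The AI difference exceeded the AN difference by 1.41 for Meg3, 1.36 for Rian, 1.43 for Mirg, 0.89 for Dlk1 and 0.84 for Rtl1 on the log2(FPKM + 1) scale. These were flagged by the unadjusted exact permutation test, whose null was no effect of the state in AN and none in AI. None passed after adjustment over all genes (limma, adjusted p = 0.290 each).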

How the results depend on the processing

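The differences of Meg3, Rian, Mirg, Dlk1 and Rtl1 between AI F and AI P, between AN P and AI P and between the effects kept their sign in all alternatives run. Depth is unknown, 1 library stood for each line, and Rtl1, Dio3 and Begain were near or under 1 FPKM. No paired analysis was possible because the replicate numbers only follow the order of the samples. Genes called moved as follows, and the cause was not tested. With AI9 as the only AI P line, 20 genes were called in AI F vs AI P, 17 in AN P vs AI P and 7 in the difference of effects. Without GS9 and GS32, there were 6 in AI F vs AI P, 2 in AN F vs AI F and 5 in AN P vs AI P. With 1 fit of all 16 lines, or with small RNA genes left out, 0 were called in AN F vs AI F and 0 in AN P vs AI P. With passage as a covariate 2 and 1 were called there, and with fibroblast markers 1 in AN P vs AI P. Leaving out each line in turn gave 0 to 1 genes in AN F vs AN P, 0 to 5 in AI F vs AI P, 1 to 3 in AN F vs AI F, 1 to 19 in AN P vs AI P and 0 to 651 in the difference of effects, both upper values of the last 2 without AI9. Among fold changes of members, signs changed for Begain with fibroblast markers as a covariate, at -0.038 in AI F vs AI P, 0.15 in AN F vs AI F and -0.015 in the difference of effects, and for Mirg in AN F vs AI F, at -0.028 with passage as a covariate and -0.011 without GS9 and GS32. When single lines were left out, Begain ranged from -0.19 to 0.010 in AN F vs AN P, and in AN F vs AI F Begain ranged from -0.28 to 0.0053, Meg3 from -0.044 to 0.21 and Mirg from -0.017 to 0.22. The noncoding minus coding difference of AN F vs AI F, 0.33, was 0.51 by the class sum and 0.51 with a pseudocount of 0.1. That of AN F vs AN P, -0.04, was 0.15 by the class sum and 0.14 with that pseudocount, and -0.17 to 0.0083 when single lines were left out.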
